A study of Mus musculus with 8 samples.

Results

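Transcripts of 10 melanocyte and pigment genes were measured by bulk RNA sequencing of back skin epidermis from mice that were 22 months old. The genes were chosen by name, with earlier results of these data known, and are 10 of the 49315 genes in the count files. They are Tyr, Tyrp1 and Dct (enzymes of melanin synthesis), Pmel and Mlana (melanosome proteins), Oca2 and Slc45a2 (melanosome transporters), Mitf and Sox10 (transcription factors) and Kit (a receptor). The groups were 5 libraries labelled Tgfa KO and 3 labelled WT, and Tgfa is the gene of TGF-alpha, which binds the EGF receptor. The title of the series concerns the need for this ligand in the aging hair follicle and in hair loss. All 8 libraries carry the cell type label keratinocytes. Names of the libraries end in bl for KO replicates 3 to 5, and in br for KO replicates 1 and 2 and for all 3 WT replicates. The sources used here do not give the meaning of these endings, the structure of the Tgfa allele, the mouse strain or whether libraries came from separate animals. The p-values therefore measure the spread between these libraries, which may be technical.

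Melanocytes derive from the neural crest, and in haired mouse skin they reside mainly in hair follicles. Melanocyte stem cells sit in the follicle bulge, and their progeny in the hair bulb make melanin while the hair grows. Melanin is made in melanosomes, organelles related to lysosomes, which are passed to keratinocytes. MITF, the central transcription factor of the lineage, acts on many pigment genes, and KIT and its ligand stem cell factor (Kitl) are needed for melanocyte survival and migration.

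Total counts were 5313552 to 17417500 in the KO libraries and 12968728 to 18292303 in the WT libraries. KO replicate 2 was the shallowest library, and 42326 genes had a count in it. Counts on 1690 autosomal olfactory and vomeronasal receptor genes, whose transcripts belong to the sensory epithelia of the nose, served as a measure of background. KO replicate 2 had 4.59 such counts per kilobase of exon, and the remaining KO libraries had 0.124 to 0.265, against 0.147, 0.936 and 1.85 in WT replicates 1 to 3. For each gene, this rate times its exon length gives the count that it would have if it were covered as the receptor genes are. Tgfa itself had 34.4, 43.3, 36.2 and 70.2 CPM (counts scaled to the size of the library with TMM factors) in KO replicates 2 to 5, against 92.5, 85.1 and 112 CPM in the WT libraries. The library labelled KO replicate 1 had 132 CPM of Tgfa, 136.6% of the WT mean, which goes against its label. Fits without it are among the ranges given for left-out libraries. Keratinocyte markers (Krt10 and Krt5 the highest in CPM of 8) summed to 11340 to 26560 CPM in KO and 9032 to 21240 CPM in WT.

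Melanocyte transcripts were scarce in both genotypes, and none of the genes tested passed the threshold between them. The 10 genes together had 397, 427, 526, 734 and 707 counts in KO replicates 1 to 5, against 558, 616 and 469 counts in WT replicates 1 to 3. Of the 10 genes, 8 passed the filter on low counts, and Mlana and Oca2 did not. Of the 8, 0 were higher and 0 lower in KO by edgeR's quasi-likelihood test (Benjamini-Hochberg adjusted p under 0.05), where 0.0052% of 19239 genes (1 gene) were called and 1209 genes had an unadjusted p under 0.05. Their log2 fold changes, KO minus WT, were positive in 5 and negative in 3 with a median of 0.12, against a median of 0.16 over all genes tested. Limma voom called 0 of the 8, and DESeq2 0 of the 6 members to which it gave an adjusted p (Tyrp1, Dct, Pmel, Oca2, Mitf and Kit). A limma voom fit with sample quality weights, which are lower for libraries that deviate more from the fit, also called 0 of the 8, where it called 6.46% of all genes. Its weights were 0.284 and 0.366 for KO replicates 1 and 2, 0.339 for WT replicate 3 and 1.47 to 2.26 for the others. No member separated the 5 KO from the 3 WT libraries without overlap, as 5.15% of the tested genes did. In bulk epidermis, fewer melanocytes and less transcript per melanocyte cannot be told apart.

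Per length of transcript, Pmel and Mitf were the most abundant members. Pmel averaged 12.6 TPM (scaled to exon length and library size) over the 8 libraries and ranged from 3.40 to 23.1 TPM, and Mitf averaged 7.49 TPM with a range of 4.41 to 11.3. Pmel lay above Mitf in 6 of 8 libraries, and Mitf lay above Dct, the next in order, in all 8. Below them, Dct averaged 2.33 TPM, Mlana 1.65, Tyrp1 1.53, Kit 0.856, Sox10 0.669, Oca2 0.550, Slc45a2 0.408 and Tyr 0.257. Neighbours in this lower part of the order were poorly separated, each lying above the next in only 4 to 6 libraries. The share of the members' counts on Pmel and Mitf was 83.9%, 39.1%, 86.9%, 74.8% and 75.1% in KO replicates 1 to 5, and 88.0%, 75.2% and 73.8% in WT replicates 1 to 3. KO replicate 2 thus stood apart in the makeup of its counts on the members.

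The other 8 members were set against the receptor gene rate. In KO replicates 1 to 5 they had 64, 260, 69, 185 and 176 counts, where the rate gives 8.3, 144.1, 4.4, 5.9 and 3.9. In WT replicates 1 to 3 they had 67, 153 and 123 counts, where it gives 4.6, 29.4 and 58.0. The rate thus came to 55.4% of the counts in KO replicate 2 and 47.2% in WT replicate 3, and lay between 2.2% and 13% in KO replicates 1, 3, 4 and 5 and at 6.9% and 19.2% in WT replicates 1 and 2. KO replicate 2 was the library with the highest CPM for 8 of the 10 members, as it was for 32.2% of all genes tested. Mlana and Oca2 are among these 8 members but, being below the filter, not among the genes tested. With this rate subtracted from every gene, the edgeR log2 fold changes were 0.58 for Tyr, 2.05 for Tyrp1, 0.99 for Dct, 0.21 for Pmel, -1.01 for Slc45a2, -0.02 for Mitf, -0.55 for Sox10 and 1.45 for Kit, and none passed.

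**Figure D1:**
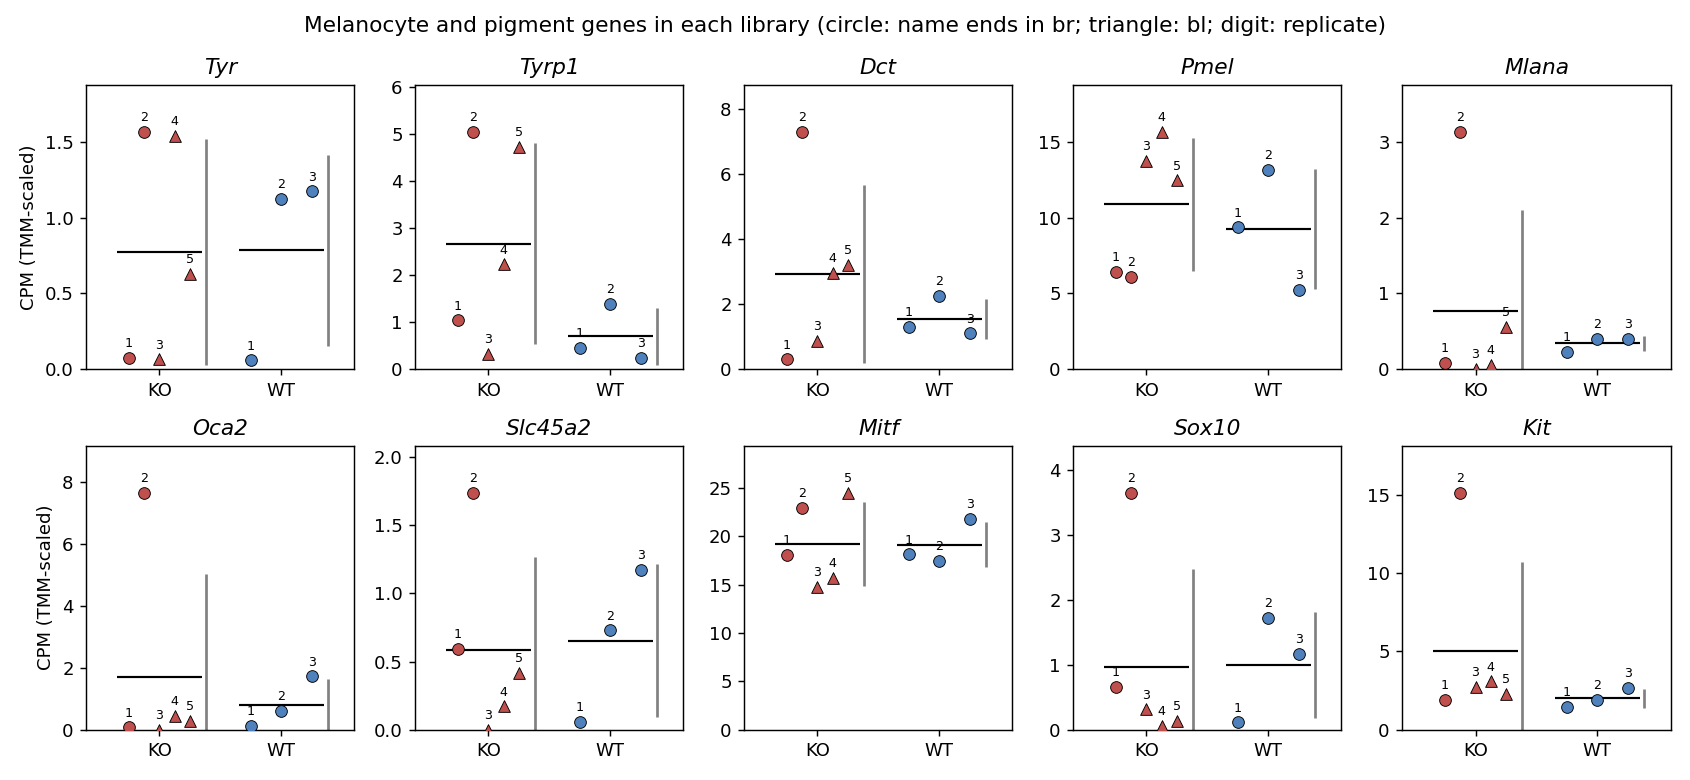
TMM-scaled CPM of each of the 10 genes in every library, KO left of WT, on linear axes that start at 0. Points are libraries with the replicate number beside them, circles have names ending in br and triangles in bl, horizontal lines are group means and grey bars show 1 SD either side, cut at 0. KO replicate 2 is the highest point for 8 genes, and the groups overlap in every panel.

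**Figure D2:**
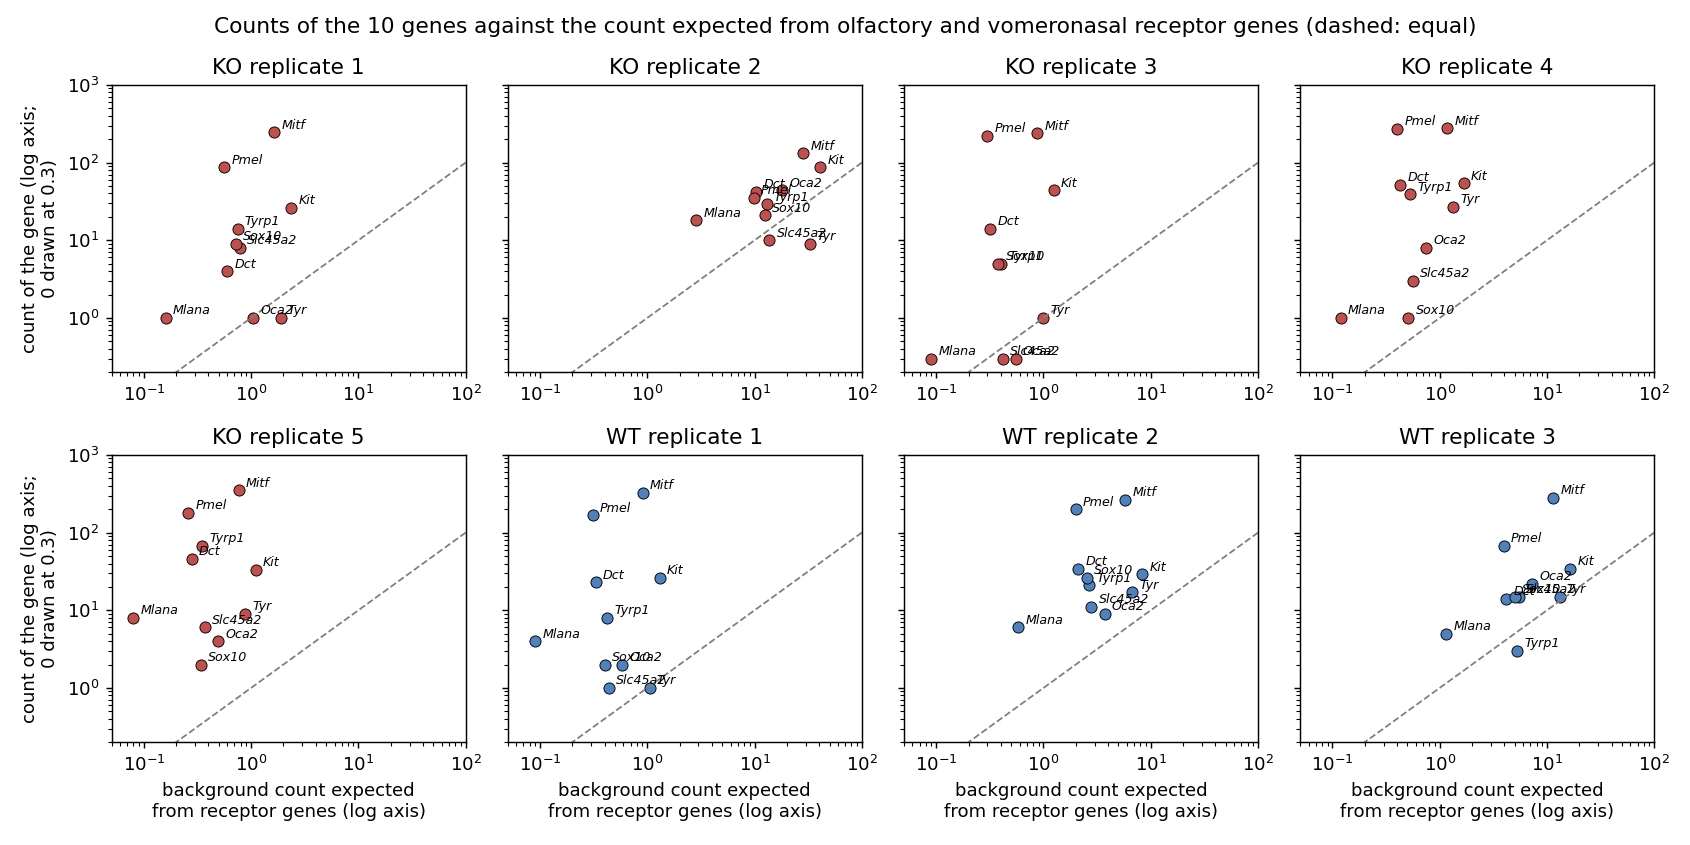
Count of each gene (vertical log axis, 0 drawn at 0.3) against the count that the receptor gene rate gives for its exon length (horizontal log axis), in 1 panel per library. Genes on the dashed line have as many counts as the receptor genes per kilobase. Pmel and Mitf lie above the line in every library, while most other members approach it in KO replicate 2 and WT replicate 3.

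The 3 enzymes of the melanin pathway share a short element in front of their genes. Tyr encodes tyrosinase, which carries out the first and rate-limiting steps. Dct encodes dopachrome tautomerase, also expressed by pigment cell precursors, and Tyrp1 encodes tyrosinase-related protein 1, which acts in the synthesis of dark eumelanin. RefSeq start sites on GRCm38.p6 were matched for 6 of the 10 members, with 9 windows in all. The 250 bases before the start are shown for the enzyme genes because the 3 lie in the same pathway and carry the same run of 10 bases, in capitals, which begins 23, 48 and 152 bases before the start in Tyr, Tyrp1 and Dct. The run, GTCATGTGCT, holds the E-box CATGTG, and a second E-box in Dct, on the opposite strand, is also in capitals. The regions are chr7:87493513-87493762 (minus strand) for Tyr, chr4:80833963-80834212 (plus strand) for Tyrp1 and chr14:118052247-118052496 (minus strand) for Dct.
Tyr: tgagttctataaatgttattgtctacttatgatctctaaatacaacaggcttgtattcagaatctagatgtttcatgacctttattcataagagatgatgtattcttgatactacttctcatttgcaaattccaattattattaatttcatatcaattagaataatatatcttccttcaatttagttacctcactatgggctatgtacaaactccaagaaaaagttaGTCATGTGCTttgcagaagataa
Tyrp1: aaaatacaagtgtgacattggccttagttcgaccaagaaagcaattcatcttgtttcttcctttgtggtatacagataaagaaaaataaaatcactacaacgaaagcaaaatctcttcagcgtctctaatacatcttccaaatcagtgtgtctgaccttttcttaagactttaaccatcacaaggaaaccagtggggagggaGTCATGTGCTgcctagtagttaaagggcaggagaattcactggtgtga
Dct: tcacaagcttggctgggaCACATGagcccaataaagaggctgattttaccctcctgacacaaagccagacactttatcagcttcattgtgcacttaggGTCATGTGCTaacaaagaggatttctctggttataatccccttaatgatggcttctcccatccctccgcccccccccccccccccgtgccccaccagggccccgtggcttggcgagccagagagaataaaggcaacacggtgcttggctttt
With both strands searched from 250 bases before to 50 bases after the start, GTCATGTGCT was in 0.186% of 32851 promoter windows (61 windows) and CATGTG, which lies within it, in 14.2%. The E-box CACGTG was in 7.15% and in none of the members' windows. The Oca2 window held 1 CATGTG, and the windows of Mitf and Kit held none. The run was picked as the longest one common to the 3 windows, so its presence there is a description of the sequences.

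Among the enzymes, Tyrp1 had the largest difference between the group means, and it did not pass the test. Tyrp1 (ENSMUSG00000005994, chromosome 4, 80834123 to 80851719, GRCm38) had 1.03, 5.04, 0.313, 2.23 and 4.73 CPM in KO replicates 1 to 5, against 0.448, 1.39 and 0.234 CPM in WT replicates 1 to 3. KO replicates 2, 4 and 5 lay above every WT library, and KO replicate 3 and the library labelled KO replicate 1 lay within the WT range. In KO replicates 2, 4 and 5 Tyrp1 had 29, 39 and 68 counts, where the receptor gene rate gives 12.98, 0.53 and 0.35. In WT replicate 3 it had 3 counts, where that rate gives 5.23. The log2 fold change was 1.92 (95% interval -0.36 to 4.20, SE 1.02, edgeR adjusted p = 0.836). The mean was 2.67 ± 2.14 CPM in KO (SD, n = 5) and 0.691 ± 0.614 CPM in WT (n = 3). The estimate stayed positive with each library left out, at 1.52 to 2.91, and was 0.78 with library weights (limma adjusted p = 0.656).

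Dct (ENSMUSG00000022129, chromosome 14, 118012792 to 118052246) had 0.295, 7.29, 0.875, 2.97 and 3.20 CPM in KO replicates 1 to 5, against 1.29, 2.25 and 1.09 CPM in WT replicates 1 to 3. The KO libraries lay on both sides of the WT range, with 2 below it and 3 above it. The log2 fold change was 0.90 (95% interval -1.14 to 2.94, SE 0.915, edgeR adjusted p = 0.930), with 0.25 without KO replicate 2 and at most 1.28 with another library left out. In that library Dct had 42 counts, where the receptor gene rate gives 10.38.

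Tyr (ENSMUSG00000004651, chromosome 7, 87424771 to 87493512) was the scarcest member per length. It had 1, 9, 1, 27 and 9 counts in KO replicates 1 to 5, against 1, 17 and 15 counts in WT replicates 1 to 3. In CPM these were 0.074, 1.56, 0.063, 1.54 and 0.626 in KO, against 0.056, 1.13 and 1.17 in WT. KO replicates 2 and 4 were highest, and 1 library of WT and 2 of KO were near 0. The receptor gene rate gives 32.63 counts for Tyr in KO replicate 2 and 13.14 in WT replicate 3, so the counts of these 2 libraries are near or below that rate, while KO replicate 4 (27 counts) is well above its 1.34. The log2 fold change was -0.04 (95% interval -2.80 to 2.72, SE 1.24, edgeR adjusted p = 0.995), and it was 0.58 with the background per kilobase subtracted.

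Summed over the 3 enzymes, KO replicates 1 to 5 had 1.40, 13.9, 1.25, 6.73 and 8.56 CPM and WT replicates 1 to 3 had 1.79, 4.76 and 2.5 CPM. Enzyme counts in KO replicates 4 and 5 were 118 and 123, where the receptor gene rate gives 2.3 and 1.5. The 80 counts in KO replicate 2 stand beside 56.0 from that rate, and the 32 counts in WT replicate 3 beside 22.6. KO replicates 4 and 5 therefore had the most enzyme transcript clear of the receptor gene rate, and KO replicate 3, of the same name ending, was among the lowest libraries. Genes listed for the hair matrix, hair shaft and inner root sheath, many of which are active in growing follicles, were also summed. They had 195, 133, 111, 133 and 837 CPM in KO replicates 1 to 5 and 125, 95.7 and 121 CPM in WT replicates 1 to 3. In WT the highest means of this list were those of Dlx3 (40.6 CPM) and Foxn1 (21.9 CPM), with 42.95 and 31.8 CPM in KO. KO replicate 5 had the highest sum, and KO replicate 4, with a high enzyme sum, had 133 CPM. The part of follicle stage in the enzyme levels was not tested.

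**Figure D3:**
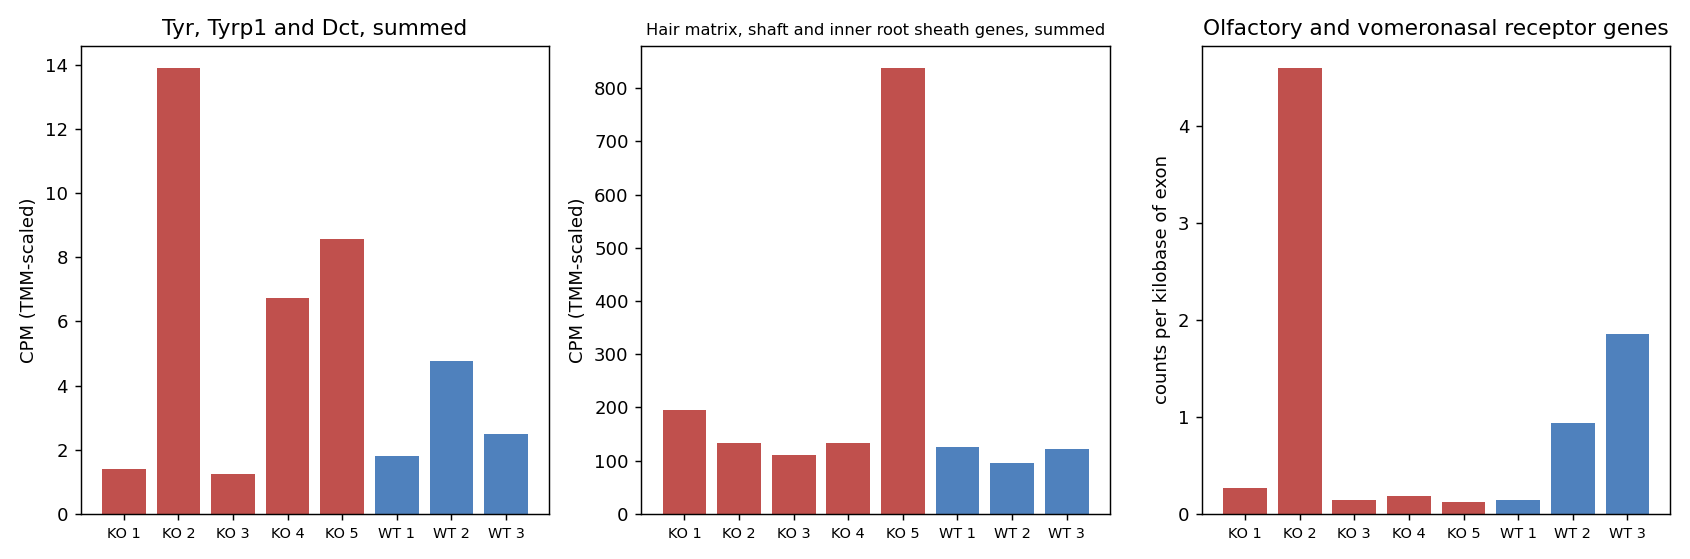
Bars give, for each library, the summed TMM-scaled CPM of Tyr, Tyrp1 and Dct (left), the summed CPM of 19 hair matrix, shaft and inner root sheath genes (middle) and the counts per kilobase on receptor genes (right), KO in red left of WT in blue. KO replicate 2 is highest on the left and on the right, and KO replicate 5 is highest in the middle.

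Pmel, which encodes the protein of the fibrils on which melanin is laid down, was the most abundant member per length of transcript, and the spread within each group was larger than the difference between them. Pmel (ENSMUSG00000025359, chromosome 10, 128706258 to 128720238) had 6.41, 6.08, 13.8, 15.6 and 12.5 CPM in KO replicates 1 to 5, against 9.35, 13.2 and 5.24 CPM in WT replicates 1 to 3. KO replicates 3 to 5 were high and KO replicates 1 and 2 low, and the WT libraries spanned nearly the same range. The mean was 10.9 ± 4.37 CPM in KO (SD, n = 5) and 9.25 ± 3.96 CPM in WT (n = 3), which is 0.24 as log2 fold change (95% interval -0.68 to 1.16, SE 0.413, edgeR adjusted p = 0.938). Among libraries ending in br it was -0.59 (adjusted p = 0.947).

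Counts of Pmel are uncertain, because its exons share 98 of their 2130 bases with Dgka, a diacylglycerol kinase gene on the opposite strand, and the sources used here do not say whether counting used strand. Dgka had 2803, 652, 3537, 3723 and 2681 counts in KO replicates 1 to 5, against 4916, 4071 and 2253 counts in WT replicates 1 to 3. If its reads were spread evenly over its exons, 97.8, 22.8, 123.4, 129.9 and 93.6 of them would fall on the shared bases in KO, and 171.6, 142.1 and 78.6 in WT. Pmel itself had 87, 35, 220, 274 and 179 counts in KO, and 167, 199 and 67 in WT. The counts of Pmel were thus below that figure in the library labelled KO replicate 1 and in WT replicates 1 and 3, and above it in the other 5 libraries. The part of Dgka reads in the Pmel counts was not tested.

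**Figure D4:**
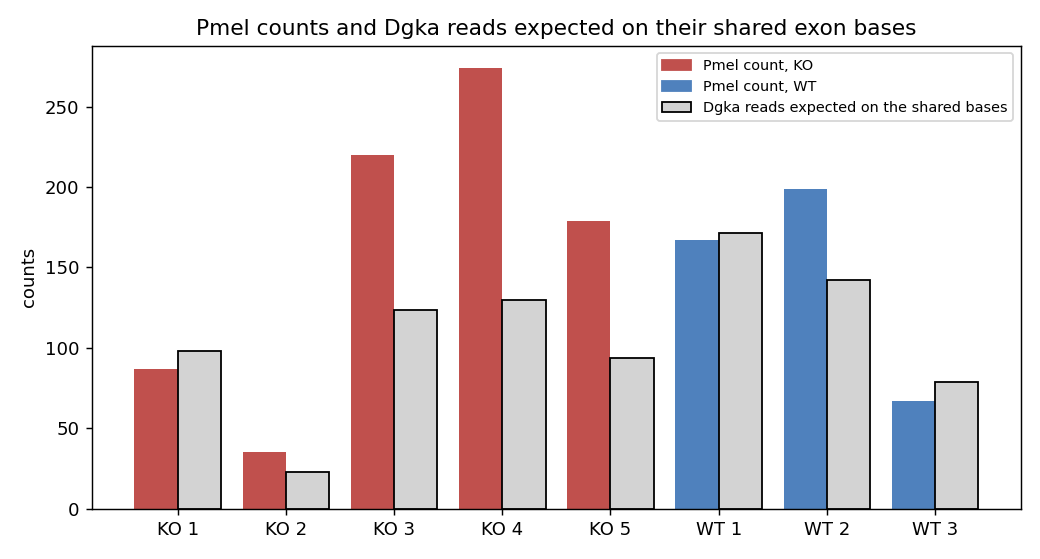
For each library, the count of Pmel (coloured bar, KO in red left of WT in blue) beside the number of Dgka reads that would fall on the exon bases the 2 genes share if Dgka reads were spread evenly (grey bar). The vertical axis is linear and starts at 0. Pmel exceeds the grey bar in KO replicates 2 to 5 and in WT replicate 2.

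Mlana, a melanosome protein that binds PMEL, was too scarce for the filter. Mlana (ENSMUSG00000024806, chromosome 19, 29697921 to 29708448) had 1, 18, 0, 1 and 8 counts in KO replicates 1 to 5, against 4, 6 and 5 counts in WT replicates 1 to 3. KO replicates 2 and 5 were above the WT libraries and the other 3 KO libraries below them. The count of 0 in KO replicate 3 allows up to 0.188 CPM (3 counts, counting error only). With no filter the log2 fold change was 1.03 (edgeR adjusted p = 0.998).

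The transporters were scarce as well. Oca2 (ENSMUSG00000030450, chromosome 7, 56239760 to 56536518), whose product acts on melanosome pH, had 1, 44, 0, 8 and 4 counts in KO replicates 1 to 5, against 2, 9 and 22 counts in WT replicates 1 to 3. Slc45a2 (ENSMUSG00000022243, chromosome 15, 11000721 to 11029233), a transporter that also acts on the melanosome lumen, had 8, 10, 0, 3 and 6 counts in KO, against 1, 11 and 15 counts in WT. High counts of Oca2 were in KO replicate 2 and WT replicate 3, where the receptor gene rate gives 18.19 and 7.32, and both genes had no count in KO replicate 3. For Slc45a2 that rate gives 13.70 counts in KO replicate 2, above the 10 observed. Slc45a2 had a log2 fold change of -0.23 (95% interval -3.17 to 2.71, SE 1.32, edgeR adjusted p = 0.978), and Oca2, with no filter, one of 0.93 (adjusted p = 0.998).

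Mitf was the member with the steadiest level, and its group means were alike. Mitf (ENSMUSG00000035158, chromosome 6, 97807052 to 98021349) had 18.1, 22.9, 14.8, 15.7 and 24.5 CPM in KO replicates 1 to 5, against 18.1, 17.5 and 21.8 CPM in WT replicates 1 to 3. The KO libraries spread on both sides of the WT libraries. The mean was 19.2 ± 4.32 CPM in KO (SD, n = 5) and 19.1 ± 2.34 CPM in WT (n = 3). The log2 fold change was 0.004 with an SE of 0.238 (95% interval -0.53 to 0.53, edgeR adjusted p = 0.997). Mitf has several promoters, used in different cell types, and RefSeq gives 3 start windows for it. A count per gene does not tell the melanocyte form from the others. Mitf lies on the same chromosome as Tgfa.

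Sox10, a neural crest factor that acts on Mitf and is also expressed in Schwann cells, was scarce in every library. Sox10 (ENSMUSG00000033006, chromosome 15, 79154913 to 79164490) had 9, 21, 5, 1 and 2 counts in KO replicates 1 to 5, against 2, 26 and 15 counts in WT replicates 1 to 3. The most counts were in WT replicate 2 and KO replicate 2, and the rate gives 12.46 counts in the KO library. KO replicates 4 and 5, which had the most enzyme counts, had 1 and 2 counts of Sox10. The log2 fold change was -0.13 (95% interval -3.06 to 2.81, SE 1.32, edgeR adjusted p = 0.989), 0.98 among libraries ending in br and -1.76 without KO replicate 2. Of 10 Schwann cell markers, 5 were tested, 4 of them positive and 1 negative (median 0.72), and 0 passed. This median was -0.21 without KO replicate 2, -0.25 with library weights and 1.53 among libraries ending in br. The 10 markers summed to 91.1 to 139 CPM in KO and 119 to 145 CPM in WT, mostly from Mbp. The part of Schwann cells in the Sox10 counts was not tested.

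Kit, the receptor for stem cell factor, was highest in KO replicate 2 and alike elsewhere. Kit (ENSMUSG00000005672, chromosome 5, 75574916 to 75656722) had 1.92, 15.1, 2.75, 3.08 and 2.30 CPM in KO replicates 1 to 5, against 1.46, 1.92 and 2.66 CPM in WT replicates 1 to 3. Of the 87 counts in KO replicate 2, the receptor gene rate gives 40.91. The log2 fold change was 1.30 (95% interval -0.41 to 3.01, SE 0.765, edgeR adjusted p = 0.857), with 0.33 without KO replicate 2 and at most 1.55 with another library left out. Mast cells also carry KIT. Of 10 mast cell markers 4 were tested, with 3 positive and 1 negative (median 1.03) and 0 called. Without KO replicate 2 the median was -0.51, with library weights -0.87 and among libraries ending in br 2.13. The sum of the 10 was 8.48 to 42.9 CPM in KO and 10.5 to 38.1 CPM in WT. Mrgprb2 had the highest mean, with 14.3 ± 9.26 CPM in KO (SD, n = 5) and 23.9 ± 16.25 CPM in WT (n = 3). Its log2 fold change was -0.74 (SE 0.645, edgeR adjusted p = 0.919), and -2.01 among libraries ending in br. The next highest means of the list were those of Hdc in KO (2.075 CPM) and Gata2 in WT (0.823 CPM). The sum of 42.9 CPM was that of KO replicate 2, where the receptor gene rate gives 112.2 of the 247 counts. The mast cell proteases Cpa3, Tpsb2 and Mcpt4 had 20, 14 and 17 counts in KO replicate 2, where the receptor gene rate gives 6.97, 4.96 and 4.55, and at most 1 count each in the other KO libraries. In WT they had at most 2 counts each, except Mcpt4 with 4 in WT replicate 2 and 18 in WT replicate 3. Cma1, another protease of the list, was not confined to KO replicate 2 among the KO libraries. Its counts were 15, 20, 2, 4 and 1 in KO replicates 1 to 5. In WT replicates 1 to 3 they were 2, 3 and 16. For Cma1 the receptor gene rate gives 0.28 counts in KO replicate 1 and 4.93 in KO replicate 2. Tpsab1 was highest in KO replicate 2, and its mean was 0.66 CPM in KO and 0.104 CPM in WT. The part of mast cells in the Kit counts was not tested.

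**Figure D5:**
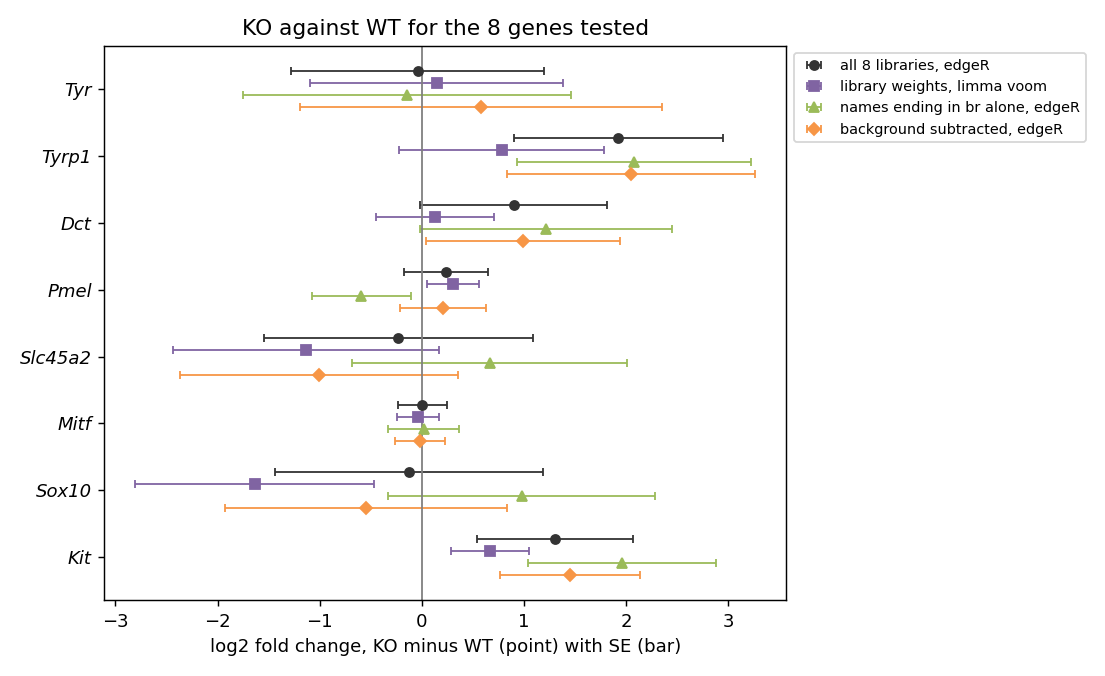
Log2 fold change, KO minus WT, with its SE for the 8 genes tested, in edgeR on all 8 libraries, limma voom with library weights, edgeR on libraries ending in br and edgeR after background was subtracted. Tyrp1, Dct and Kit are positive in all 4 fits, the sign of Pmel, Slc45a2, Sox10, Tyr and Mitf varies, and no value passes the threshold.

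Signals to melanocytes are made by other cells of the skin. Of 17 tested genes of this kind, 0 passed in edgeR, with 11 positive and 6 negative (median 0.15, and -0.10 without KO replicate 2 and 0.008 without WT replicate 3). Nfib, a transcription factor of follicle stem cells, and Wnt7b, a Wnt ligand, had the highest CPM, with log2 fold changes of 0.15 and -0.21. Kitl had 27.5, 45.2, 19.0, 19.4 and 20.7 CPM in KO replicates 1 to 5, against 41.6, 42.7 and 20.9 CPM in WT replicates 1 to 3. KO replicates 3 to 5 lay just below the lowest WT library, and KO replicate 2 was the highest library of all. For Kitl, edgeR gave a log2 fold change of -0.42 (SE 0.351) at an adjusted p of 0.917. With library weights, a fit that calls 6.46% of all genes, Kitl fell by 0.97 on the log2 scale (limma adjusted p = 0.0181). Kitl also passed without WT replicate 3 and KO replicates 1 and 2 (-1.12, edgeR adjusted p = 0.00173), in a fit that calls 1895 genes. That fit sets WT libraries ending in br against KO libraries ending in bl, so ending and genotype cannot be told apart in it. Among libraries ending in br its log2 fold change was 0.02 (edgeR adjusted p = 0.998), and within KO it was -0.95 for bl minus br. Edn1 and Edn3, which encode endothelins, had edgeR log2 fold changes of 0.22 and 0.16. Without KO replicate 2 the value of Edn3 was -3.44, and with library weights it was -2.82. Edn3 had 4, 27, 0, 0 and 0 counts in KO replicates 1 to 5, against 1, 10 and 23 counts in WT replicates 1 to 3. Pomc, the precursor of melanocyte stimulating hormone, had 8 counts in KO replicate 2 and 4 counts in WT replicate 3, and the other 6 libraries had 0.

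Other genes of the pigment cell and the melanosome gave no call in edgeR. Of 9 tested genes from a list of 15 other melanocyte genes, 6 were positive and 3 negative (median 0.54). The median was -0.13 without KO replicate 2, -0.22 with library weights and 1.37 among libraries ending in br. The genes with the highest CPM, Mreg and Rab38, which act in melanosome transport and in the delivery of melanosome enzymes, had log2 fold changes of -0.11 and -0.06. Of 25 genes of melanosome biogenesis and transport, which also serve lysosome-related organelles of other cells, 17 were positive and 8 negative (median 0.18, and -0.01 among libraries ending in br). Lyst and Ap3d1, the highest of these in CPM, had 0.33 and -0.06. Hps1, a subunit of the BLOC-3 complex, had 12.9 ± 3.40 CPM in KO (SD, n = 5) and 6.60 ± 2.43 CPM in WT (n = 3), and edgeR gave a log2 fold change of 0.97 with an SE of 0.342 (adjusted p = 0.676). With library weights it was the 1 gene of the 25 that rose (0.86, limma adjusted p = 0.0499), in a fit that calls 6.46% of all genes, and it did not pass without WT replicate 3 and KO replicates 1 and 2 (edgeR adjusted p = 0.0676). Slc7a11, a cystine transporter tied to the red-yellow pigment of mouse hair, had 5.31, 7.64, 4.50, 3.08 and 4.04 CPM in KO replicates 1 to 5, against 0.784, 2.45 and 1.64 CPM in WT replicates 1 to 3. It is outside the naming rule and was picked once its values were known, because the groups did not overlap, as in 5.15% of all genes tested. EdgeR gave it a log2 fold change of 1.59 with an SE of 0.526 (adjusted p = 0.630). In KO replicate 2 and WT replicate 3, its counts of 44 and 21 were below the 63.92 and 25.73 that the receptor gene rate gives. Tgfb1, of the list of signals, also had no overlap, with 25.0, 25.5, 29.2, 28.6 and 23.0 CPM in KO replicates 1 to 5, against 38.3, 31.2 and 29.6 CPM in WT replicates 1 to 3, and edgeR gave it -0.33 (SE 0.189, adjusted p = 0.849).

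Transcription factors that act in melanocytes, of which 9 were tested, were positive in 7 and negative in 2 (median 0.36), with 0 called. This median was -0.23 without KO replicate 2 and -0.16 with library weights. The highest in CPM, Tfap2a and Sox9, are also keratinocyte and follicle genes, and had 0.14 and 0.36. Of 19 hair matrix, shaft and inner root sheath genes, 18 were positive (median 1.44), and the median was 0.56 without KO replicate 5 and 0.02 with library weights. In the weighted fit Foxn1, a transcription factor of the hair matrix, rose (1.10, limma adjusted p = 0.0373), against -0.17 in edgeR among libraries ending in br. Of the 8 keratinocyte markers, Krt1, a keratin of the suprabasal layers, rose in the weighted fit (1.33, limma adjusted p = 0.0264), against 1.44 in edgeR on all 8 libraries (adjusted p = 0.713). Without WT replicate 3 and KO replicates 1 and 2, Krt1 passed (1.17, edgeR adjusted p = 0.00118) and Foxn1 did not (1.06, adjusted p = 0.0746). Tchh and Dlx3 were the hair genes with the highest CPM. Tchh, which encodes trichohyalin, had 91.9 ± 144 CPM in KO (SD, n = 5) and 18.1 ± 3.89 CPM in WT (n = 3), with an edgeR adjusted p of 0.819. Dlx3 had 42.95 ± 25.99 CPM in KO and 40.6 ± 7.32 CPM in WT (log2 fold change 0.08, edgeR adjusted p = 0.978). Fibroblast markers, of which 7 were tested (Vim and Col6a1 the highest in CPM), had a median of -0.01, with -0.64 under library weights and 0.61 among libraries ending in br. The median of the dermal papilla markers, of which 3 were tested (Rspo3 and Corin the highest in CPM), was 0.55, and -1.08 without KO replicate 2 and 0.009 without WT replicate 3. No gene was called in either list by edgeR.

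Within KO, the libraries ending in bl (n = 3) and in br (n = 2) were compared for the 6 members that could be tested. None passed in edgeR, where 0% of 19026 genes were called and 3339 had an unadjusted p under 0.05 (limma voom also called 0, with 3078). Pmel had the highest value relative to br, at 1.10 (SE 0.286, adjusted p = 0.165), and Kit the lowest, at -1.71 (SE 0.815, adjusted p = 0.328). Dct was at -0.74, Tyrp1 at -0.37, Mitf at -0.22 and Tyr at -0.12, bl minus br. Pmel had 13.8, 15.6 and 12.5 CPM in the bl libraries, against 6.41 and 6.08 CPM in the br libraries. Both br libraries had low weights, the library labelled KO replicate 1 being the one with Tgfa against its label, and without it Pmel and Kit were among 4784 genes past the threshold. Without KO replicate 2, Pmel was among 4617 such genes, and with no filter on low counts among 2383. Each fit with 1 br library assumes that it varies like the 3 bl libraries. The name ending and the state of those libraries cannot be told apart.

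Genes whose level followed the pigment genes were taken by a fixed rule. Each tested gene was correlated over the 8 libraries with the mean log2 CPM of the 5 tested pigment members. Genes of the lists used here and predicted genes (Gm and Rik names) were left out. The 5 with the highest correlation among the rest were taken. They were Dennd6b (r = 0.977, rho = 0.833), Parm1 (r = 0.965, rho = 0.833), Lsm5 (r = 0.958, rho = 0.762), Cyp2j8 (r = 0.952, rho = 0.905) and Ndufa5 (r = 0.939, rho = 0.905). All 5 were highest in KO replicate 2, as most members were, and share that library's depth and background. Parm1, for example, had 3.83, 12.5, 3.63, 7.19 and 8.77 CPM in KO replicates 1 to 5, against 2.85, 5.75 and 3.52 CPM in WT replicates 1 to 3. The correlations describe these libraries and were picked as the highest of the tested genes that were not left out.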

How the data were processed

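Per the labels' protocols, total RNA was purified by Trizol and columns, treated with DNase, made into libraries with a NEBNext Ultra II kit and sequenced as read pairs. The authors deposited raw read counts per gene, 1 table for each library. The tools were Subread 1.5.2 with featureCounts, STAR 2.5.2b and Trimmomatic 0.36, per the submitters' processing notes, which name GRCm38 and also GRCh38. Genes have mouse Ensembl identifiers, per the file headers, and of 49315 genes 48970 were matched to GENCODE M21 on GRCm38, 91.4% at identical positions, and coordinates are those of the files. Strand setting and how reads with several matches were handled are not known here.

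Groups came from the genotype label, and replicate numbers follow the order of deposition and pair nothing. Members and gene lists were chosen with earlier results of these data known. The test was that of edgeR 4.0.16 under R 4.3.3, over all genes (quasi-likelihood test, robust, TMM, filterByExpr), with Benjamini-Hochberg adjustment over the 19239 genes that passed. Alternatives were DESeq2 1.42.0, limma 3.58.1 voom with and without sample quality weights, other scalings and filters, background subtracted, the name ending as a covariate, subsets and each library left out. CPM uses TMM factors and TPM the exon lengths in the files. Scripts were tested on simulated data. For the text, all 10 members were named, with up to 4 genes per list past the threshold by edgeR or else up to 2 with the highest CPM, plus Kitl, Edn1, Edn3 and Pomc. Outside this rule, Hps1, Foxn1 and Krt1 (called with library weights) and Slc7a11 and Tgfb1 (no overlap) were named after their values were seen. The same holds for the mast cell proteases Cpa3, Tpsb2, Mcpt4, Cma1 and Tpsab1. The likeness measure used log2 CPM with an offset of 1. Krt85, Asip and Vamp7 were not analysed here. Total counts of 5313552 to 18292303 per library set the precision, and limits on counts of 0 cover counting error only.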

Additional observations from a re-analysis of the deposited data

Results flagged for a closer look

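In 4 of the 10 genes, KO replicate 2 lay far above the other 4 KO libraries. The gap to the next library, as a share of the range of the 5 KO libraries, was 0.822 for Mlana, 0.94 for Oca2, 0.831 for Sox10 and 0.912 for Kit, above the critical value of 0.71 for 5 samples. Over all tested genes, which do not include Mlana and Oca2, 21.5% had a KO library that far above the others. In 15.6% it was KO replicate 2. All 4 flags here fall on the same library, the one with 4.59 counts per kilobase on receptor genes. For these genes the receptor gene rate gives 2.86, 18.19, 12.46 and 40.91 counts in that library, against 18, 44, 21 and 87 counted.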

How the results depend on the processing

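No paired analysis was possible because the replicate numbers follow the order of deposition and pair no libraries. The 8 tested members were refitted 160 times in all: 125 estimates kept their direction, 35 reversed, and 0 of the 157 with an adjusted p passed the threshold. Estimates of Tyrp1, Dct and Kit were positive in every fit. The lowest were 0.78 for Tyrp1 with library weights, 0.056 for Dct in voom and 0.33 for Kit without KO replicate 2. Tyr (-0.04) was 0.15 with library weights, 0.074 with library totals alone, 0.58 with background subtracted, 0.35 without WT replicate 3 and KO replicates 1 and 2 together, and -0.59 to 0.37 with 1 library left out. Pmel (0.24) was -0.57 with the name ending as a covariate, -0.59 among libraries ending in br, and -0.041 to 0.56 with 1 left out. Slc45a2 (-0.23) was 0.81, 0.66 and -1.13 to 0.50 under the same 3, and Sox10 (-0.13) was 1.08, 0.98 and -1.76 to 0.53. Mitf (0.004) was -0.039 in DESeq2, -0.037 in voom, -0.040 with library weights, -0.033 with RLE size factors, -0.018 with no filter, -0.016 with background subtracted, -0.09 against the 3 KO libraries ending in bl, and -0.10 to 0.11 with 1 left out. The genes called over all genes, 1 in the reported fit, were 137 in DESeq2, 0 in voom, 1243 with library weights, 0 with RLE size factors, 9 with no filter, 0 among libraries ending in br, 4 for the 3 KO libraries ending in bl against WT, 1895 without the 3 libraries named above, and 0 to 1 with 1 left out. Between the endings bl and br, 0 became 2383 with no filter and 0 to 4784 with 1 left out. The cause was not tested. Of 110 list medians under alternatives 17 moved by over 1 SD. Tyr, Tyrp1, Dct, Slc45a2 and Sox10 had 0 to 68 counts per library and wide intervals, and Mlana and Oca2 were too scarce to test. Shares of depth and of spread between libraries in these widths were not separated.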
